A study of Mus musculus with 105 samples.

Results

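Kinesins are motor proteins that walk along microtubules, or shorten them at their ends, using ATP. One set of them builds and moves the spindle and cuts the cell at division: Kif11 slides antiparallel microtubules apart to make a bipolar spindle, Kif2c and Kif2a remove tubulin from microtubule ends, Kif18a quiets chromosome movements, Kif4 and Kif22 ride on chromosome arms, and Kif23, Kif20a, Kif20b and Kif14 act at the central spindle and the midbody. Another set, with Kif5b, Kif3a and Kif1b as members, carries organelles and other cargo in cells that are not dividing. A full-grown oocyte (FGO) is arrested in prophase with an intact nucleus, makes little new RNA and keeps many maternal mRNAs in store. Maturation to metaphase II (MII) assembles 2 meiotic spindles in turn, and some mRNAs of that store are translated in its course.

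Kinesins were taken as every gene name made of Kif, a number and optional small letters, which gave 40 names among 26459 names in the 3 deposited tables. Of these, 38 encode motors: 13 were grouped as spindle and cytokinesis kinesins, 15 as transport kinesins and 10 as kinesins of cilia, signalling or other roles. The others are Kif1bp, a protein that binds motors, and Kif16bos, an antisense RNA, and both were counted apart. All 38 motors were in both expression tables and 35 were in the tail table.

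Ribosome footprints, the mRNA pieces that ribosomes protect from nuclease, were measured in 18 single FGO and 20 single MII oocytes of wild-type genotype. Footprints were also measured in MII oocytes heterozygous (Het) or knockout (KO) for Btg4, with 3 libraries each, and mRNA in 2 libraries each. Btg4 links the CCR4-NOT deadenylase to mRNAs during maturation. Poly(A) tail lengths came from 1 library each of wild-type FGO, wild-type MII oocytes and Btg4 Het MII oocytes and from 2 libraries of Btg4 KO MII oocytes. The labels name as donors C57BL/6 females, 8 or 5 weeks old, that had received 5 IU of PMSG and 5 IU of hCG. This entry is the same for every sample of the series, so it does not tell the hormone treatment of FGO and MII donors apart. The Btg4 controls are Het and so carry 1 mutant allele themselves, and the labels give neither the allele nor the number of animals or oocytes behind a library. With no animals named, p-values measure the spread between these libraries, which may be technical.

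Expression values are FPKM, fragments scaled to transcript length and library total, so levels of different genes can be compared. Footprint reads were recovered over genes whose low values were whole multiples of 1 read. They ran from 21870 to 232948 in FGO and from 12749 to 62228 in MII oocytes. In Btg4 libraries they ran from 85540 to 278944 in Het and from 141850 to 241257 in KO. For Kif14, 274 reads were 44.8 FPKM in FGO 2, with 232948 recovered reads, and 1 read was 0.21 FPKM in FGO 17, with 27014. A read thus stood for similar FPKM in both, so FPKM ranges over single oocytes can also carry differences in recovered reads. Footprints of Btg4 itself were 7009, 6346 and 6134 FPKM in Het and 1148, 971 and 907 FPKM in KO libraries, and its mRNA was 3293 and 4774 FPKM in Het and 1754 and 2345 FPKM in KO. All 10 oocyte markers had a median above 0 in FGO, and 9 had one in MII oocytes. Of 13 granulosa and cumulus cell markers, Fshr, Fst and Krt8 were at 0 in every MII oocyte, and the summed markers ran from 2.64 to 105 FPKM in FGO and from 70.7 to 220.5 FPKM in MII oocytes, where Serpine2 alone had a mean of 120.1 FPKM. Other granulosa markers were higher in FGO: Gja1 was above 0 in 17 FGO and 5 MII oocytes, with means of 13.0 and 1.09 FPKM, and Inha in 13 and 1, with means of 10.6 and 0.238 FPKM. The part of granulosa cell RNA in the kinesin levels was not tested. Hemoglobin genes were listed in 9 FGO of 18, and only in 1 MII oocyte of 20. In earlier results of these data MII oocytes 2 and 4 correlated better with FGO than with other MII oocytes, and the share of spindle kinesins is given with and without them.

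Most spindle kinesins carried far more footprints in MII oocytes than in FGO, while the median transport kinesin was slightly lower. Of 12 spindle kinesins with a mean of at least 1 FPKM over both stages, 7 were at least 2-fold higher in MII oocytes and 1 was at least 2-fold lower, with a median log2 ratio of 1.503. Of 8 transport kinesins, 1 was higher and 2 were lower, with a median log2 ratio of -0.43. Over all 8818 genes compared, 27.8% were at least 2-fold higher and 31.6% at least 2-fold lower, with a median of -0.18. Each oocyte is 1 cell and no animals are named, so the oocytes of a stage stand for 1 sample and nothing was tested. Ratios are log2 of (mean MII + 1 FPKM) over (mean FGO + 1 FPKM), which understates the change of low genes. In 12 oocytes the median compared gene was listed at 0, and footprints of single genes rest on few reads.

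Kif23, the motor of the centralspindlin complex that bundles microtubules for cytokinesis, had the highest footprint level of all kinesins in both stages. It ran from 2.67 to 136 FPKM with a median of 25.3 in the 18 FGO, and from 79.98 to 462 FPKM with a median of 199 in the 20 MII oocytes. Its mean was 40.1 ± 36.0 FPKM (SD, n = 18) in FGO and 216 ± 107 FPKM (SD, n = 20) in MII oocytes, a log2 ratio of 2.40. The stages overlapped, and the MII oocyte was higher in 97.5% of the 360 pairs of 1 FGO and 1 MII oocyte.

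Kif20a, which brings the chromosomal passenger complex to the central spindle, was the one motor of the 22 compared that separated the stages without overlap. FGO ran from 1.30 to 31.4 FPKM with a median of 6.85, and MII oocytes from 37.9 to 160.3 FPKM with a median of 106. Its log2 ratio was 3.03. Every MII oocyte was above every FGO for 2.18% of the 8818 genes.

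Kif18a, a motor that dampens the oscillation of chromosomes at the spindle equator, had the largest ratio among kinesins. Only 6 of the 18 FGO listed it above 0, at most at 8.36 FPKM, while all 20 MII oocytes did, from 3.47 to 35.7 FPKM with a median of 15.4. Its means were 0.823 and 17.6 FPKM, a log2 ratio of 3.35, and 4.26 with a pseudocount of 0.1 FPKM. Its recovered reads ran from 0 to 15 in FGO and from 2 to 37 in MII oocytes, so its level in FGO is at the limit of detection.

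Kif2c, a microtubule depolymerase that corrects faulty attachments of chromosomes, ran from 0 to 32.7 FPKM with a median of 6.36 in FGO and from 13.4 to 114 FPKM with a median of 56.9 in MII oocytes. Its log2 ratio was 2.72. Kif20b, a motor of the midbody, had medians of 4.32 and 39.9 FPKM and a log2 ratio of 2.45. Kif4, a chromokinesin that works with Prc1 on the central spindle, had medians of 6.08 and 38.3 FPKM and a log2 ratio of 1.70. Kif11, the motor that keeps spindle poles apart, had medians of 2.43 and 12.6 FPKM and a log2 ratio of 1.30. All of these overlapped between stages, with the MII oocyte higher in 97.8% of pairs for Kif2c, 96.7% for Kif20b, 88.6% for Kif4 and 83.6% for Kif11.

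**Figure D1:**
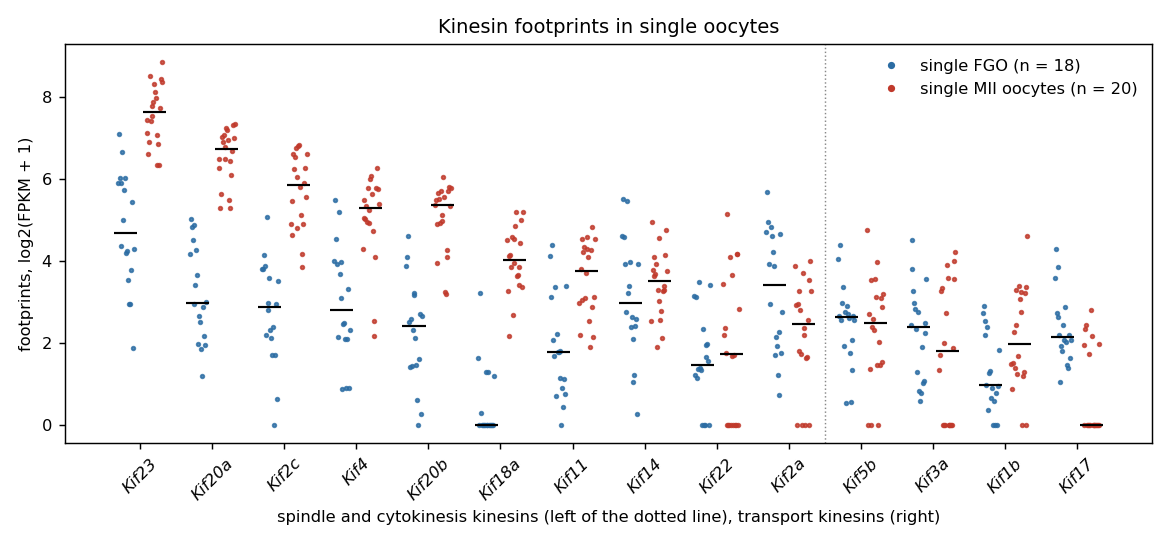
Footprints of 14 kinesins in single oocytes as log2(FPKM + 1), with 1 point for each of 18 FGO (blue) and 20 MII oocytes (red) and a bar at the median. The clouds of Kif20a do not overlap, those of Kif18a lie mostly at 0 in FGO, and those of Kif14, Kif5b and Kif3a overlap widely.

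Not every spindle kinesin was higher in MII oocytes. Kif14, which recruits citron kinase to the midbody, had means of 12.5 ± 13.4 FPKM (SD, n = 18) in FGO and 11.9 ± 7.37 FPKM (SD, n = 20) in MII oocytes, a log2 ratio of -0.07. Kif22, a chromokinesin that pushes chromosome arms toward the equator, had means of 3.15 and 6.34 FPKM with medians of 1.77 and 2.34, and the MII oocyte was higher in 50.3% of pairs. Kif2a, a depolymerase at spindle poles, went the other way, with medians of 10.2 FPKM (FGO) and 4.54 FPKM (MII oocytes) and a log2 ratio of -1.23. Kif15 and Kif18b had log2 ratios of -0.85 and -0.70, and Kif2b was under the level for comparison. The ratios of Kif15 and Kif18b rest on few oocytes. Kif15 had 20.7 FPKM in FGO 1, with medians of 0.10 (FGO) and 0 (MII oocytes). Kif18b had 61.6 FPKM in FGO 13 and 47.65 FPKM in MII oocyte 1.

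Among transport kinesins the levels were low in both stages. Kif5b, a heavy chain of conventional kinesin, had means of 5.88 (FGO) and 6.03 FPKM (MII oocytes), and Kif3a, a subunit of the kinesin of cilia, had 5.43 and 5.05 FPKM. Kif17, a motor known from dendrites, was above 0 in every FGO with a median of 3.39 FPKM and had a median of 0 in MII oocytes, where its highest value was 5.95 FPKM, a log2 ratio of -1.42. Kif1b, a motor for mitochondria and vesicles, had means of 1.94 and 5.08 FPKM, a log2 ratio of 1.05, and fell to 0.80 without MII oocyte 20. A pair of low-level motors were also past 2-fold, Kif21b at -1.68 and Kif19a at -1.25, named here after their values were seen. Kif21b had 20.7 and 17.5 FPKM in FGO 1 and 3, and at most 3.21 FPKM in any other FGO. Kif19a had 27.4 FPKM in 1 FGO and a mean of 1.94 FPKM, and without that oocyte it was under the level for comparison.

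**Figure D2:**
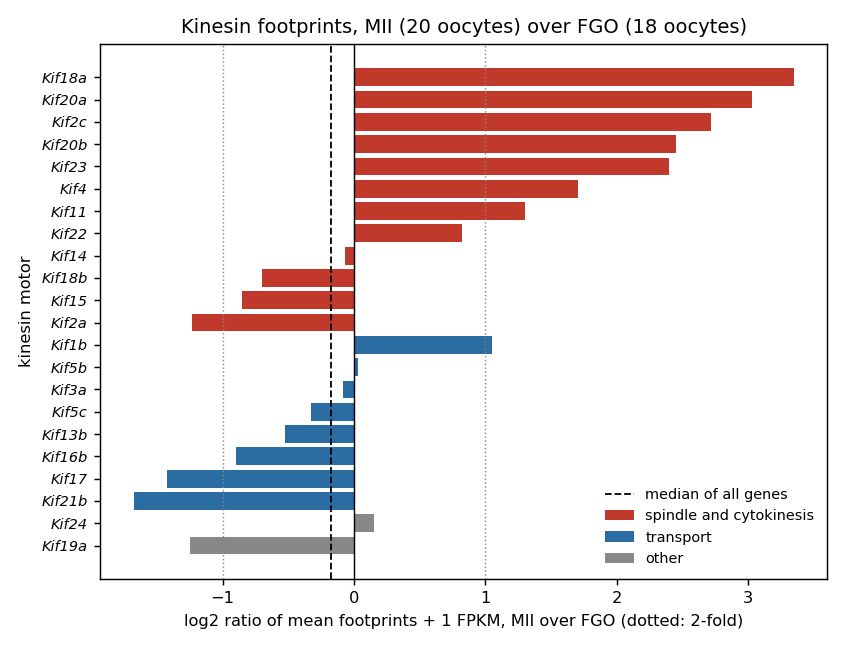
Log2 ratio of mean footprints in 20 MII oocytes over 18 FGO, each plus 1 FPKM, for the 22 kinesin motors that could be compared, with the median of all genes dashed and 2-fold differences dotted. The 7 longest bars to the right are spindle kinesins, from 1.30 for Kif11 to 3.35 for Kif18a.

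The share of spindle kinesins among all kinesin footprints does not depend on how a library is scaled. In FGO the 13 spindle kinesins held 39.7% to 86.3% of the summed FPKM of the 38 motors, with a median of 73.6%, and in MII oocytes they held 90.5% to 98.3%, with a median of 94.8%. The stages did not overlap. The lowest FGO, number 17, stood apart, and without it FGO began at 60.2%. Without MII oocytes 2 and 4 the MII range was the same, and without oocytes that list a hemoglobin gene the ranges were 60.2% to 83.8% in 9 FGO and 90.5% to 98.3% in 19 MII oocytes. With Kif23 left out of both sums, the shares were 33.6% to 84.2% in FGO and 86.5% to 97.4% in MII oocytes.

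The gain in share was spread over several motors. Kif23 held a median of 24.4% of kinesin footprints in FGO and 39.1% in MII oocytes, Kif20a 7.57% and 18.9%, and Kif2c 4.47% and 10.0%. Kif14 held 6.51% in FGO and 2.09% in MII oocytes, and Kif2a 7.82% and 0.90%. Summed spindle kinesins ran from 11.5 to 346 FPKM in FGO and from 166 to 910 FPKM in MII oocytes. In FGO this sum moved with the summed oocyte markers of the same oocyte (Spearman's correlation 0.93, Pearson's r 0.84, n = 18 oocytes), and both sums share each library's depth and scaling. It also moved with recovered reads (Spearman 0.76, Pearson 0.67), for which the 20 MII oocytes gave 0.37 and 0.24. With the summed granulosa markers the values were -0.04 and -0.17 in FGO and 0.84 and 0.83 in MII oocytes, where the oocyte markers gave 0.83 and 0.83. Serpine2 made up most of the granulosa sum in MII oocytes, so that value is largely a correlation with this 1 gene.

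**Figure D3:**
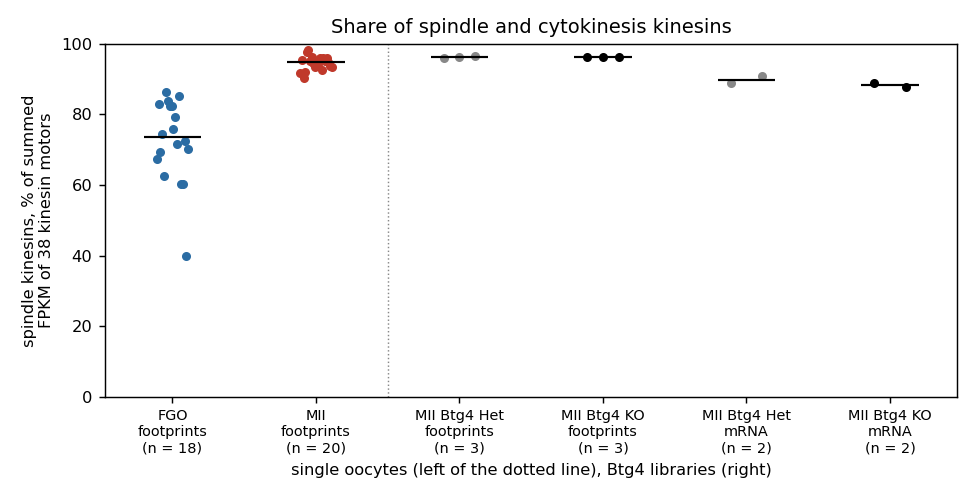
Spindle and cytokinesis kinesins as a percentage of the summed FPKM of 38 kinesin motors, with 1 point for each single oocyte or Btg4 library and a bar at the median. FGO lie between 39.7% and 86.3%, MII oocytes between 90.5% and 98.3%, Btg4 footprint libraries between 96.2% and 96.7%, and Btg4 mRNA libraries between 87.9% and 90.8%.

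Many genes that act with these motors were also higher in MII oocytes. Of 5 kinesins outside the name rule, Kifc1, Kifc3, Kifc5b and Cenpe were at least 2-fold higher, with log2 ratios of 2.36, 3.03, 1.96 and 2.09, and Kifc2, with means of 0.387 and 0.144 FPKM, was under the level for comparison. Kifc1 and Kifc5b are near-identical copies, and reads may have been split between them. Of 28 partners of spindle kinesins, 17 were at least 2-fold higher and 5 lower, next to 27.8% and 31.6% of all genes, with a median log2 ratio of 1.19. The largest ratios were 5.19 for Cep55, an abscission factor, 4.27 for Prc1, the microtubule bundler of the central spindle, 4.04 for Nuf2, a kinetochore subunit, 3.83 for Cdca8, a subunit of the chromosomal passenger complex, and 3.36 for Aurkc, its kinase in germ cells. The 5 lower partners, named after their values were seen, were Birc5 at -2.54, Spc25 at -2.15, Tacc3 at -1.86, Nusap1 at -1.52 and Hmmr at -1.13.

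Promoters of kinesin genes are shown as background to the role groups. Many genes of the cell division programme carry one short element, the cell cycle genes homology region, close to their start. The element was searched as TTTGAA or TTCGAA on both strands, where TTTGAA on the other strand reads TTCAAA. RefSeq promoters of build GRCm38.p6 were matched for 31 of 38 motors. Kif20a, Kif5a, Kif5b, Kif13b, Kif21b, Kif19a and Kif28 had no entry. In a window of 90 bases, from 60 before to 30 after the start, the letters were found in 7 of 12 spindle kinesins (58.3%), in 1 of 11 transport kinesins (9.1%), in 2 of 8 others and in 5.7% of 27025 genes. Over the whole 300 bases the shares were 75.0% of spindle kinesins, 9.1% of transport kinesins and 21.7% of all genes. A set of 5 spindle kinesins follows 5′ to 3′ with these letters in capitals, and Kif3a, a transport kinesin, is set beside them as one without.
Kif11: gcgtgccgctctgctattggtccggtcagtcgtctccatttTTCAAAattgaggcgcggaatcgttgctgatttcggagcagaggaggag
Kif23: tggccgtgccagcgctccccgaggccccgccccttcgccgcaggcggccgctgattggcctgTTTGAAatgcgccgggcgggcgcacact
Kif4: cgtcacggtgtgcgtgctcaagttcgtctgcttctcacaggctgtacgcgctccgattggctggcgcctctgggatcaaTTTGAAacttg
Kif20b: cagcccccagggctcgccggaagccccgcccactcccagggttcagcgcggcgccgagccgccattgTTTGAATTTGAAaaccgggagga
Kif22: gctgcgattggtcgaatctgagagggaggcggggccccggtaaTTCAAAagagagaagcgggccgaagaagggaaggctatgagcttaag
Kif3a: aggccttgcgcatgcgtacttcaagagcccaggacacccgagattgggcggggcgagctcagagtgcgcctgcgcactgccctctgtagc
These windows are Kif11 at chr19:37376322-37376411, plus strand; Kif23 at chr9:61946770-61946859, minus strand. Kif4 is at chrX:100626005-100626094, plus strand. Kif20b is at chr19:34922298-34922387, plus strand. Kif22 is at chr7:127042391-127042480, minus strand. Kif3a is at chr11:53567309-53567398, plus strand. In Kif20b the letters occur as 2 adjoining copies, and in Kif11 and Kif22 on the other strand. Kif18a and Kif2c, with high ratios in MII oocytes, had no match in their 90 bases. Kif15 and Kif18b, with ratios under 0 that rest on few oocytes, had one. A match is a run of letters and not a measured site, and these oocytes gave no data on transcription.

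In bulk Btg4 Het MII oocytes, the 3 motors of the name rule with most footprints were the same as in single MII oocytes. Cenpe, a kinesin outside the rule, had a Het mean of 261.5 ± 54.7 FPKM (SD, n = 3). Within the rule the highest Het means were Kif23 at 757 ± 212 FPKM, Kif20a at 365 ± 94.8 FPKM and Kif2c at 248 ± 83.9 FPKM (SD, n = 3 each). The libraries of Kif23 did not overlap with those of Kif20a. Kif20b followed at 170 ± 29.7 FPKM and Kif4 at 154 ± 46.5 FPKM, whose values overlapped. The 3 highest transport kinesins were Kif3a at 12.3 ± 7.29 FPKM, Kif1b at 11.6 ± 9.38 FPKM and Kif5b at 9.64 ± 6.64 FPKM. Spindle kinesins made up 96.2% to 96.7% of kinesin footprints and 89.0% to 90.8% of kinesin mRNA in Het.

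The ratio of footprints to mRNA varied widely among spindle kinesins. The log2 level of footprints over mRNA in Het, each plus 1 FPKM, had a median of 1.19 over 10 spindle kinesins, -0.36 over 8 transport kinesins and 0.23 over all 7382 genes. Kif2c was highest with 248 FPKM of footprints and 29.5 FPKM of mRNA, a level of 3.03 that was above 95.4% of all genes. Kif4 with 2.35 and Kif20a with 2.25 came next. A few spindle kinesins were under 0: Kif2a at -1.19, Kif22 at -0.84 and Kif18a at -0.07. Among transport kinesins Kif13b was highest at 1.59 and Kif17 lowest at -1.81. These levels set footprint and mRNA libraries of separate preparations side by side, with no test.

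**Figure D4:**
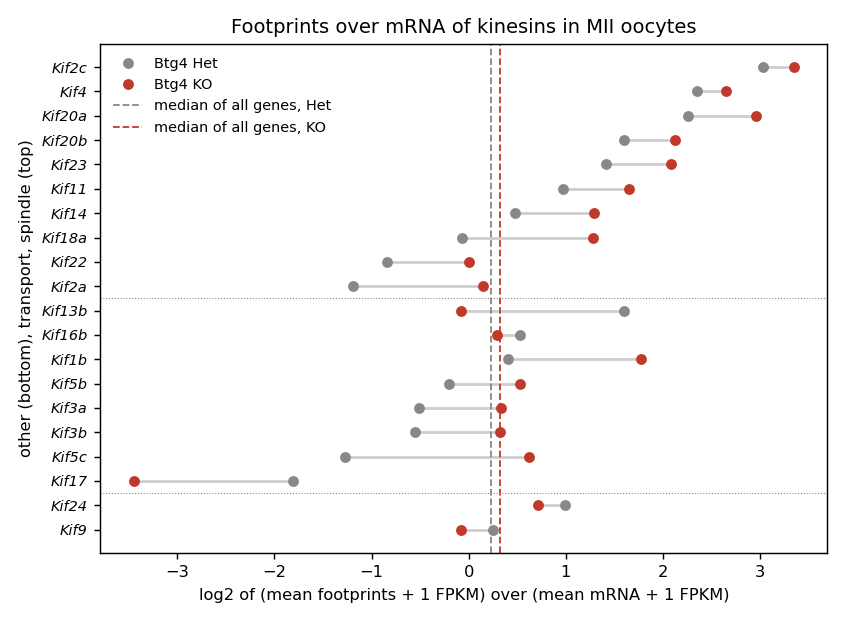
Log2 of mean footprints over mean mRNA, each plus 1 FPKM, for 20 kinesin motors in Btg4 Het (grey) and KO (red) MII oocytes, with the medians of all genes dashed. All 10 spindle kinesins, at the top, lie further right in KO, and none of these shifts passed the test.

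Kif22 mRNA was higher in Btg4 KO, and most other kinesin mRNAs showed no change that passed the test. Of 21 motors tested, 2 rose and none fell, against 18.9% of 8865 genes that rose and 0.620% that fell (limma, adjusted p below 0.05). At an unadjusted p below 0.05 there were 6, next to 2960 of all 8865 genes. The median log2 difference, KO minus Het, was -0.27 over 10 spindle kinesins, -0.25 over 9 transport kinesins and 0.14 over all genes.

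Kif22 mRNA was 25.0 and 41.8 FPKM in Het and 140.4 and 121 FPKM in KO. Both KO libraries were above both Het libraries, as for 38.9% of all genes, with a log2 difference of 1.98 ± 0.34 (SE, limma, adjusted p = 0.00566). It passed without any 1 of the 4 libraries, and its adjusted p was 0.0555 with no filter on low genes. Kif22 footprints were 25.5, 23.7 and 5.47 FPKM in Het and 100.1, 181.5 and 112 FPKM in KO. The recovered reads behind them were 36, 17 and 3 for Het libraries, against 78, 200 and 128 for KO libraries. The groups did not overlap, the log2 difference was 2.98 ± 0.64 (SE), and limma gave an adjusted p of 0.0582, which missed the threshold. With the replicate number as a block, an alternative setting, limma gave an adjusted p of 0.0458.

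Kif9, a motor of motile cilia, was the other motor whose mRNA rose. It was 0.626 and 0.530 FPKM in Het and 2.74 and 2.03 FPKM in KO, a log2 difference of 1.09 ± 0.30 (SE, limma, adjusted p = 0.034). The level is low, and the call was lost without any 1 of the 4 libraries, with adjusted p from 0.0526 to 0.172. Kif17 mRNA was 9.02 and 10.9 FPKM in Het and 21.9 and 21.8 FPKM in KO, with an adjusted p of 0.0552 (limma).

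The most abundant kinesin mRNAs were lower in KO without passing the test. Kif23 mRNA was 303 and 264 FPKM in Het and 185 and 127 FPKM in KO, a log2 difference of -0.88 ± 0.31 (SE, limma, adjusted p = 0.088). Kif20a mRNA was 87.6 and 63.6 FPKM in Het and 47.8 and 27.3 FPKM in KO, a difference of -1.02 ± 0.37 (SE, limma, adjusted p = 0.088). Next in level among motors of the name rule was Kif18a mRNA. It was 51.4 and 73.4 FPKM in Het and 39.1 and 48.8 FPKM in KO, a difference of -0.48. Kif20b mRNA had 53.3 and 58.2 FPKM in Het and 34.4 and 31.5 FPKM in KO. In all of these both KO libraries were below both Het libraries, as they were for 22.0% of all genes.

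Transport kinesins had less mRNA than the top spindle kinesins. The estimates of 7 of the 9 tested were below 0, next to 6 of 10 spindle kinesins and 3909 of all 8865 genes. Kif3a mRNA was 18.1 and 17.9 FPKM in Het and 13.1 and 13.1 FPKM in KO, a log2 difference of -0.43. Kif5b mRNA was 12.7 and 9.84 FPKM in Het and 8.11 and 5.82 FPKM in KO, and Kif1b mRNA was 11.1 and 6.02 FPKM in Het and 5.36 and 4.05 FPKM in KO. Neither passed as deposited. Kif2c mRNA, at 28.7 and 30.3 FPKM in Het and 56.0 and 39.0 FPKM in KO, was higher in both KO libraries without passing, at 0.65.

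Which kinesin mRNAs passed depended on the scaling of the libraries. As deposited, 96.8% of called genes were higher in KO. After scaling to the median of each library this share was 58.8% and the median difference of all genes moved from 0.14 to -0.22. The 5 motors Kif1b, Kif5b, Kif20a, Kif20b and Kif23 then passed as lower and Kif22 as higher, while Kif9 no longer passed. After quantile normalization the share was 61.3%, and the same motors except Kif23 passed as lower. FPKM are relative to each library's total, and in bulk samples fewer cells of a type and less RNA per cell cannot be told apart.

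Footprints of kinesins showed no change that passed the test in KO. Of 23 motors tested none was called, against 3.21% of 8526 genes that rose and 0.328% that fell, 3.54% in all (limma, adjusted p below 0.05). At an unadjusted p below 0.05 there were 3, Kif22, Kif2c and Kif13b, next to 1549 of all 8526 genes. The median log2 difference was 0.90 over 11 spindle kinesins, 0.37 over 10 transport kinesins and 0.27 over all genes. After median scaling these were 0.41, 0.02 and -0.10. The spindle median lay 0.63 above that of all genes with all libraries. This gap was 0.17, 0.18 and 0.10 without KO library 1, 2 or 3, and 0.65, 0.27 and 0.26 without Het library 1, 2 or 3.

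Kif2c footprints were 286, 307 and 152 FPKM in Het and 461, 612 and 410 FPKM in KO, with no overlap, a log2 difference of 1.03 ± 0.38 (SE) and an adjusted p of 0.21 (limma). Kif18a footprints were 75.4, 34.3 and 68.6 FPKM in Het and 89.2, 136 and 98.5 FPKM in KO, a log2 difference of 0.90 with no overlap (limma, adjusted p = 0.329). Kif14 footprints were 26.4, 31.3 and 10.1 FPKM in Het and 49.7, 48.2 and 42.8 FPKM in KO, also with no overlap and a difference of 1.16 (limma, adjusted p = 0.297). The motors with the most footprints behaved otherwise. Kif23 footprints were 746, 974 and 551 FPKM in Het and 509.5, 902 and 582 FPKM in KO and overlapped widely, at a log2 difference of -0.19. Kif20a footprints overlapped as well, at 329, 472 and 293 FPKM in Het and 232, 362 and 302 FPKM in KO. Kif13b, a transport kinesin, was 9.84, 9.76 and 3.04 FPKM in Het and 2.66, 0.606 and 1.16 FPKM in KO, a log2 difference of -1.74 ± 0.72 (SE, limma, adjusted p = 0.266), and all of its KO libraries were below all Het libraries, as for 7.69% of all genes. Kif3a, at 12.1, 19.7 and 5.17 FPKM in Het and 13.4, 17.2 and 19.8 FPKM in KO, overlapped, as did Kif1b and Kif5b. Of the 11 spindle kinesins, 5 had all KO libraries above all Het libraries, as did 16.8% of all genes. They were Kif2c, Kif14, Kif15, Kif18a and Kif22. Kif15 was near 0, at 0.636, 0 and 0 FPKM in Het and 1.73, 2.45 and 1.57 FPKM in KO. Kif5c, a transport kinesin, also had all KO libraries above all Het libraries, with means of 2.22 FPKM (Het) and 11.3 FPKM (KO). No gene of the whole table was called when any 1 of the KO footprint libraries was left out.

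**Figure D5:**
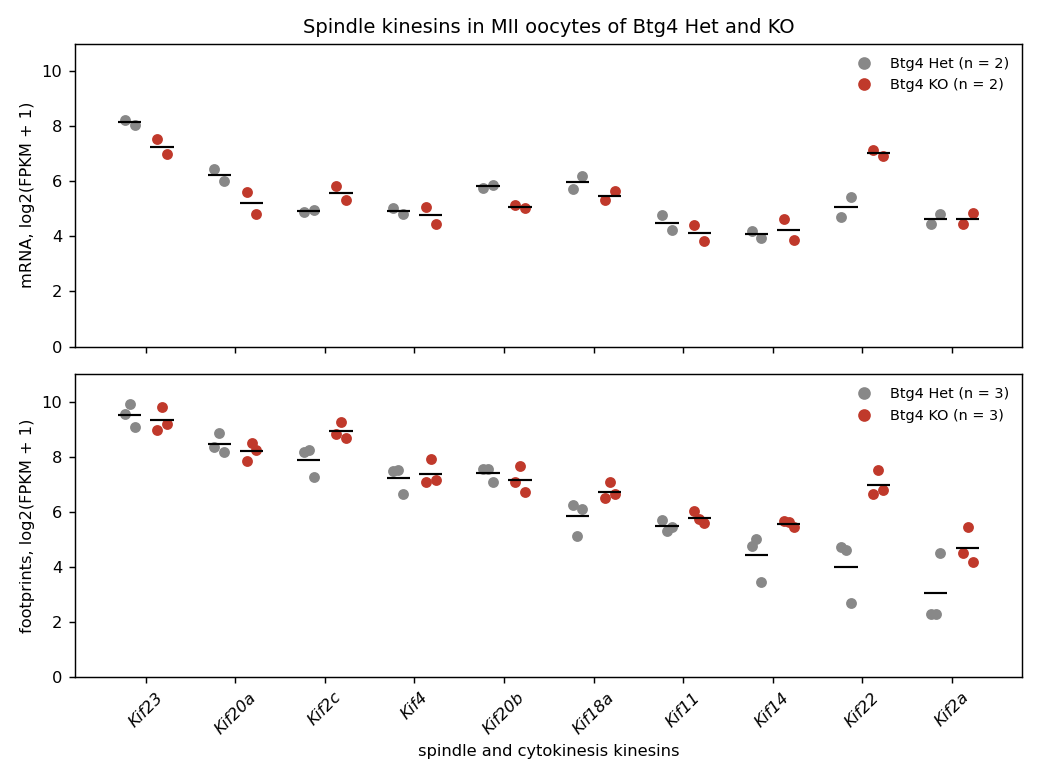
mRNA (top, 2 libraries a genotype) and footprints (bottom, 3 libraries a genotype) of 10 spindle and cytokinesis kinesins as log2(FPKM + 1) in Btg4 Het (grey) and KO (red) MII oocytes, with bars at the mean. Kif22 is higher in every KO library in both assays, while Kif23 and Kif20a are lower in mRNA and overlap in footprints.

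The change in footprints beyond that in mRNA was tested with an interaction term between genotype and assay. None of 20 motors passed, against 0.853% of 7382 genes that were higher and 0.447% that were lower, 1.30% in all (limma). At an unadjusted p below 0.05 there was 1, next to 1034 of all 7382 genes. That motor was Kif18a, with a log2 difference of 1.39 ± 0.61 (SE, limma, adjusted p = 0.352). All 10 spindle kinesins had estimates above 0, from 0.32 for Kif4 to 1.64 for Kif2a with a median of 0.71, next to 4270 of all 7382 genes, and all 10 stayed above 0 without any 1 library and under median scaling and quantile normalization. Transport kinesins had a median of 0.81 with 5 of 8 above 0, and all genes had a median of 0.24. Kif23 was at 0.68 ± 0.52 (SE) and Kif20a at 0.74 ± 0.54 (SE), and neither passed.

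Among the partners of spindle kinesins, 5 of 28 mRNAs rose in KO and 1 fell, next to the 18.9% and 0.620% of all genes. Those that rose were Birc5 by 2.02 and Aurkb by 1.90, both of the chromosomal passenger complex, Tacc3 by 1.41, Nusap1 by 1.38 and Spc25 by 1.28 on the log2 scale. The one that fell was Cep55, at -0.96, named here after its value was seen. Footprints of 2 of the 28 partners rose, next to 3.21% of all genes, Ckap2 by 2.54 and Ect2, a cytokinesis gene, by 1.69. The 5 partners with higher mRNA were not called in footprints. Their footprint differences were -2.95 for Birc5, 0.75 for Aurkb, 0.05 for Tacc3, 1.98 for Nusap1 and 0.05 for Spc25.

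Tail lengths were given for few kinesins outside FGO. In FGO, 15 motors had a value, from 26.7 nucleotides for Kif16b to 80.8 nucleotides for Kif13a, with a median of 53.9, and the median of all 6353 genes was 54.1 nucleotides. Spindle kinesins with a median of 55.0 (8 genes) and transport kinesins with 50.9 (6 genes) overlapped, the spindle kinesins lying between 46.0 and 67.3 nucleotides. A listed 0 means no value. This library carries the label SN, which the single FGO do not carry, and the labels do not say whether the FGO of both assays are of 1 kind.

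Kif23 was the one kinesin with a tail value in the Btg4 Het library. It was 49.8 nucleotides in FGO, 107 in Btg4 Het and 127 and 98.5 in Btg4 KO MII oocytes. The authors' merged values for Kif23 were 86.3 nucleotides for wild-type and Het MII oocytes together and 107 for KO. The median of all genes was 73.4 nucleotides in Het (598 genes) and 42.4 and 43.1 in KO (867 and 1416 genes). Kif4 was 67.3 nucleotides in FGO and 139 in 1 KO library. Other kinesins of the KO libraries were shorter or split: Kif14 was 56.3 in FGO and 43.8 and 20.3 in KO, Kif22 was 46.0 in FGO and 23.6 and 47.4 in KO, and Kif17 was 50.3 in FGO and 26.4 and 69.5 in KO. Kif21b had 45.1 nucleotides in 1 KO library. The 2 KO libraries differed by a median of 10.1 nucleotides over 636 genes, and by 36.6 at the 90th percentile, so the KO values of Kif17, Kif22, Kif14 and Kif23 do not fix a difference between genotypes. The wild-type MII library held 229 genes and no kinesin among them. With 1 library in most groups no test was made.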

How the data were processed

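The authors deposited FPKM values for each gene in footprint and mRNA libraries. Per the submitters' processing notes, STAR 2.5.3a, Cufflinks 2.2.1, cutadapt 1.14, Bowtie2 2.2.2 and Trim Galore 0.4.2 were used, and mm9 and hg19 are the builds named, without their roles. The authors deposited tail lengths in nucleotides for each gene, where 0 means no value, and the way tails were called is not stated in the labels. Of 105 samples in the labels, 53 had values and 52 were not analysed here. A total of 231 repeated rows were dropped from the Btg4 values, and no 2 expression libraries were identical.

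The Btg4 genotypes were compared on log2(FPKM + 1) with limma 3.58.1 (R 4.3.3; lmFit, then eBayes with a trend). Tests were two-sided with Benjamini-Hochberg adjustment and a threshold of 0.05, over genes that averaged 1 FPKM or more (for the interaction, over all 10 libraries, in each assay). The fits were tested on simulated data. Footprint libraries of the same number deviated weakly together (r = 0.255, 0.422 and 0.162), against -0.319 to 0.098 for libraries of different numbers. For mRNA libraries r was 0.627 for the same number and -0.627 for different numbers. Deviations are taken from group means, so these values are not independent. The labels name no animal or batch that libraries of the same number share. Pairing was therefore not established, and the number entered only as an alternative block. FPKM carry no counts, so no count model was used. Footprint reads were recovered for 6580 genes, with 98.3% of their low values within 0.05 of a whole read, and the depth of mRNA and tail libraries is unknown.

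Kinesins that passed a test are named, and otherwise the 3 most abundant of a role group, those with a tail value in MII oocytes, and in single oocytes those past 2-fold with a stage mean of at least 5 FPKM. Of other lists the rule takes at most 5 called genes per comparison. Other genes named were chosen after their values were seen. Kinesins and lists were chosen with earlier results of these data known. Alternatives were other pseudocounts, filters and scalings, the replicate block and leaving out libraries.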

Additional observations from a re-analysis of the deposited data

How the results depend on the processing

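For mRNA of Btg4 KO against Het, 1677 genes and 2 motors were higher and 55 genes and 0 motors lower. These became 555 and 0 higher and 5 lower genes with no filter, 1 motor higher with a filter at 5 FPKM, 1051 and 1 higher and 735 and 5 lower after median scaling, and 1104 and 1 higher and 698 and 4 lower after quantile normalization. With the replicate block they were 3033 and 4 higher and 1553 and 7 lower, the motors Kif2c, Kif9, Kif17 and Kif22 higher and Kif1b, Kif5b, Kif18a, Kif20a, Kif20b, Kif21a and Kif23 lower; the mRNA libraries share only numbers, in 2 pairs with r = 0.627, which 2 against 2 libraries fix to be equal. Without 1 library they were 1139 to 1621 genes and 1 motor higher and 22 to 270 genes and 0 to 1 motor lower.

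For footprints, 274 genes were higher and 28 lower. These became 177 higher with a pseudocount of 0.1, 145 higher and 12 lower with no filter, 81 higher and 18 lower after median scaling, and 149 higher after quantile normalization. One motor, Kif22, was higher with the replicate block or a filter at 5 FPKM. Without 1 library 0 to 260 genes were higher and 0 to 14 lower, with 0 motors. For the interaction, 63 genes were higher and 33 lower, 27 and 12 with no filter, 27 higher with the replicate block, and 0 to 156 and 0 to 47 without 1 library, with 0 motors. The block changed no other call of a motor in footprints or in the interaction.

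In single oocytes 8 motors were at least 2-fold higher and 4 lower. With a filter at 5 FPKM, 1389 genes in place of 2784 and 1 motor were lower, and 0 transport kinesins were higher and 0 lower. With a pseudocount of 0.1, medians over oocytes or upper-quartile scaling, 2 spindle kinesins in place of 1 were lower; upper-quartile scaling, chosen after seeing the data, left 0 transport kinesins higher. Without oocytes that list a hemoglobin gene 1 transport kinesin was lower. Without 1 oocyte, 2390 to 2564 genes were higher and 2479 to 2927 lower, 7 to 8 motors higher and 3 to 5 lower, 7 spindle kinesins higher and 1 to 2 lower, and 0 to 1 transport kinesins higher and 2 to 3 lower. Median scaling could not be run, since the median was 0 in 12 oocytes.

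The 21 mRNA and 23 footprint estimates of motors kept their sign with a pseudocount of 0.1, no filter and the block, as did the 16 left in each assay by a filter at 5 FPKM, and 3 to 4 changed sign after median scaling or quantile normalization and 0 to 5 without 1 library. The cause was not tested. In single oocytes depth limits low genes: Kif18a rests on 0 to 15 recovered reads in FGO.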

Other observations

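Light chains, cargo adaptors and dynein are the other parts of microtubule transport. In single oocytes 27.8% of all genes were at least 2-fold higher and 31.6% lower in MII oocytes. Of 18 light chains and adaptors, 13 could be compared, with 2 at least 2-fold higher and 5 lower in MII oocytes and a median log2 ratio of -0.32. Klc4, a kinesin light chain, was the largest at 4.13, from a mean of 2.26 FPKM in FGO to 56.1 FPKM in MII oocytes, and Sybu was at 1.83. The bulk MII libraries did not show this high level of Klc4. Its footprints there were 1.522, 4.485 and 0 FPKM in Btg4 Het and 1.379, 0 and 5.618 FPKM in KO. Trak2, Trak1 and Mapk8ip3, adaptors of kinesin and dynein, were at -1.82, -1.55 and -1.47. Of 21 dynein and dynactin genes, 1 was higher and 9 lower with a median of -0.88, among them Dctn2 at -2.26, Dctn6 at -2.22, Dynll1 at -2.06 and Dync1h1 at -1.56, while Nde1 was the one higher at 2.02.

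In Btg4 KO, 7 of 19 dynein and dynactin mRNAs rose and none fell (limma, adjusted p below 0.05), next to 18.9% of all genes that rose. The largest differences were 3.75 for Dynlt1b, 3.39 for Dynlrb1, 2.43 for Dynll1, 2.10 for Dctn2 and 1.65 for Dctn5 on the log2 scale. None of these genes was called in footprints. Their footprint differences were 1.78 for Dynlt1b, 0.46 for Dynlrb1, -1.38 for Dynll1, -2.12 for Dctn2 and -0.72 for Dctn5. Footprints of 1 of 20 rose, Pafah1b1 by 3.41, next to 3.21% of all genes. Of 11 light chains and adaptors, 1 mRNA rose, Fez2 by 1.53, and none of 3 kinesins outside the name rule passed.

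Kif1bp, which matches the name rule and encodes no motor, had mRNA of 8.75 and 6.71 FPKM in Het and 21.7 and 18.2 FPKM in KO, a log2 difference of 1.27 ± 0.34 (SE, limma, adjusted p = 0.0339). Its footprints were 2.29, 1.501 and 3.93 FPKM in Het and 0, 1.96 and 0.94 FPKM in KO. In single oocytes it was lower in MII oocytes, at a log2 ratio of -1.48. The antisense RNA Kif16bos was listed at 0 in every tail library.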
